A study of Mus musculus with 21 samples.

Results

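The 39 genes described here are interferon-induced genes and genes of the MHC class I antigen-presentation machinery, chosen by name from what they are known to do and all found among the 24206 gene names of the table. They were measured by RNA sequencing in brain endothelial cells, the cells that line brain vessels, sorted by FACS from C57BL/6 mice aged 12 to 20 weeks as live cells with CD31 (endothelial), without CD45 (leukocyte) and without PDGFRb (pericyte). In the stroke experiment the middle cerebral artery was occluded for 1 h and reperfused for 1 d, in Cko mice (Gpr124 flox/-; ROSA-CreER+) and WT mice (Gpr124 flox/+; ROSA-CreER+). Cko-ST and WT-ST hold cells of the stroke hemisphere and Cko-NS and WT-NS those of the non-stroke hemisphere, with 4 libraries per group. All 4 groups came from occluded mice, so no group comes from an unoperated brain, and WT mice also carried the Cre and 1 floxed allele. CreER at the ROSA locus is not restricted to endothelial cells. In a second experiment without stroke, Bcat males (n = 3) were Ctnnb1 lox(ex3)/+; Cdh5-CreER+, in which an endothelial Cre removes the exon that marks beta-catenin for degradation, and Bcat-WT males (n = 2) were Ctnnb1 +/+; Cdh5-CreER+. Values are the authors' RPKM, read counts divided by gene length and by library size.

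Type I and type II interferons act through the receptors Ifnar1/Ifnar2 and Ifngr1/Ifngr2 and the Jak kinases on transcription factors such as Stat2 and Irf9, which bind interferon-stimulated response elements and gamma-activated sites in DNA. The genes they switch on include antiviral effectors, RNA sensors, GTPases, chemokines and the proteasome subunits, peptide transporters and heavy chains with which cells present peptides on MHC class I. Brain endothelial cells carry interferon receptors and MHC class I and face circulating leukocytes.

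RNA coverage limits what low values can show. The stroke libraries were made with a 3' tag kit and the Bcat and Bcat-WT libraries from total RNA with another kit, so the experiments were fitted apart and levels of different genes are not compared. The files give no read counts. From ratios of low values, relative depth spanned 4.16-fold over the stroke libraries and could not be resolved in the other 5, and 13140 to 14362 genes were above 0 in the stroke libraries against 12967 to 14082 in the others. Depth was not even over the stroke groups. Relative to WT-NS 1 its median was 3.03 in Cko-ST (2.45 to 4.16) and 1.86 in Cko-NS (1.53 to 2.45). In WT mice it was 1.87 in WT-ST (1.39 to 4.08) and 1.52 in WT-NS (1 to 3.08). Gpr124, the targeted gene, averaged 1.37 ± 0.585 RPKM in Cko-ST and 4.99 ± 2.52 RPKM in WT-ST, and 2.76 ± 1.65 RPKM in Cko-NS and 4.49 ± 2.25 RPKM in WT-NS (SD, n = 4 each), where Cko-NS and WT-NS overlapped; a tag at the end of the transcript checks the floxed allele only in part. In 2 of the 16 stroke libraries, Cko-ST 3 and Cko-NS 4, sex-linked RNA went against the labelled sex. By label Cko-ST 3 and Cko-ST 4 were male and the other stroke libraries female. By RNA Cko-ST 4 and Cko-NS 4 were male and all others, with every WT library, female, so sex was not balanced between genotypes. Leaving out the 2 discordant libraries keeps Cko-ST 4, so it does not even out sex. The 12 endothelial markers summed to 2214 to 2807 RPKM in Cko-ST, 3132 to 3795 in Cko-NS, 2292 to 3077 in WT-ST and 2493 to 3018 in WT-NS, and none was at 0 in every library of a group. The 13 microglia and macrophage markers summed to 4.08 to 11.7 RPKM in Cko-ST (Tmem119 at 0), 12.1 to 23.1 in Cko-NS, 2.29 to 17.8 in WT-ST (Tmem119 and Lyz2 at 0) and 1.80 to 86.9 in WT-NS (Lyz2 at 0). Most of the highest WT-NS sum was Aif1 in WT-NS 4 (76.7 RPKM). The 11 leukocyte markers in the table summed to 5.97 to 19.6 RPKM in Cko-ST (Cd3e, Nkg7 and Gzmb among those at 0), 8.91 to 83.5 in Cko-NS, 2.16 to 42.7 in WT-ST (Cd3e, Cd3g, Cd79a, Nkg7 and Gzmb among those at 0) and 0.0331 to 9.12 in WT-NS. The 8 mural markers summed to 15.5 to 102 RPKM in Cko-ST, 23.3 to 33.3 in Cko-NS, 12.1 to 48.9 in WT-ST (Kcnj8 at 0) and 50.3 to 70.0 in WT-NS, and the 5 oligodendrocyte markers to 15.7 to 262 RPKM in Cko-ST, 40.8 to 498 in Cko-NS, 27.5 to 353 in WT-ST and 178 to 969 in WT-NS. Among the marker sums, hemispheres did not overlap for endothelial, microglia and macrophage, and neuron markers (0.399 to 3.32 RPKM in Cko-ST, 3.63 to 37.0 in Cko-NS) in Cko mice and for the mural sums in WT mice, all lower in the stroke hemisphere. The microglia and macrophage sums of Cko-ST and Cko-NS nearly met (11.7 and 12.1 RPKM). Of the 5 tested markers of that list 1, Cd68, had a positive fold change in Cko mice (0.41 ± 0.49, log2, SE). The endothelial list was split, since in Cko mice 2 of its 12 markers were called higher and 4 lower (6.44% and 8.71% of all genes). Slco1a4 fell (98.2 to 292 RPKM in Cko-ST, 624 to 749 in Cko-NS), while Cdh5 rose (352 to 560 RPKM in Cko-ST, 246 to 338 in Cko-NS). The part of the marked cell types in the results below was not tested. In bulk RNA such as this, fewer cells of a type and less RNA per cell cannot be told apart.

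RefSeq promoters (GRCm38.p6, 250 bases before to 50 after the start) were found for 31 of the 39 genes and searched on both strands. The interferon-stimulated response element, spelled GAAA, any 2 bases, GAAA, was present in 16 of the 31 (51.6%), against 3.99% of 27025 genes. The gamma-activated site, spelled TTCNNNGAA, was in 7 of 31 (22.6%, against 9.55% of all), and the NF-kB motif, spelled GGGA, any 2 bases, TTCC, in 5 of 31 (16.1%, against 1.63% of all). A match describes letters in this window only, and the list was chosen for its interferon response. Shown first are the promoters of the 3 genes that rose in both stroke comparisons, with motif letters in capitals: Ifitm3 at chr7:141010695-141010994, Ifitm2 at chr7:140955912-140956211 and Cxcl10 at chr5:92348840-92349139, all on the minus strand.
Ifitm3: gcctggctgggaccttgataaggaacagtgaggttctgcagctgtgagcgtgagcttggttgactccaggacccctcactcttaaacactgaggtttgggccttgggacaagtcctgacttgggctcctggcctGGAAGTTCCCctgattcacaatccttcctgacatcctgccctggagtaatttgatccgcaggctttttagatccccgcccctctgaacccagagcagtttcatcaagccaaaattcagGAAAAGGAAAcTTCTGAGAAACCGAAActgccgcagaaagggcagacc
Ifitm2: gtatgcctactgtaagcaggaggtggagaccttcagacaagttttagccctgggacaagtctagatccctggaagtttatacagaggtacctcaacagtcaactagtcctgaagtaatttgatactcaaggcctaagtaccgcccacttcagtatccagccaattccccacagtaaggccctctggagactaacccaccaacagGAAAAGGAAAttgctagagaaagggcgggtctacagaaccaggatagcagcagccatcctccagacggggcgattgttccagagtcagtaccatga
Cxcl10: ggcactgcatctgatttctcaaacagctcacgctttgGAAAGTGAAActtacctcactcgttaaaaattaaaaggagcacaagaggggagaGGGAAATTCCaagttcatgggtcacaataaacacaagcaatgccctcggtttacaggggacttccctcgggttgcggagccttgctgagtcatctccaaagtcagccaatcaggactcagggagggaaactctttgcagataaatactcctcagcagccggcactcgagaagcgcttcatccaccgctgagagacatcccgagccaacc
Ifitm3 had response elements beginning 2 and 19 bases after the start, a gamma-activated site that begins 13 bases after the start and overlaps the later element, and an NF-kB motif 116 bases before the start. Ifitm2 had 1 response element, 46 bases before the start. Cxcl10 had 1 response element 213 bases before and 1 NF-kB motif 159 bases before the start.

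For contrast, 2 classical interferon-induced genes that did not pass the test in either stroke comparison are Isg15 at chr4:156200769-156201068 on the minus strand, with 3 overlapping response elements 66 to 78 bases before the start, and Ifit1 at chr19:34640639-34640938 on the plus strand, with elements 85 and 104 bases before the start.
Isg15: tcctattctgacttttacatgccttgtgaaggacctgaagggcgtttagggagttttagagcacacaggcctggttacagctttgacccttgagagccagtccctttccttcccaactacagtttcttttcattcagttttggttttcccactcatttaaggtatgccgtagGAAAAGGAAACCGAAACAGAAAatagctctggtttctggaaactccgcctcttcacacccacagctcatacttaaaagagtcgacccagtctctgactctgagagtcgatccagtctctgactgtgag
Ifit1: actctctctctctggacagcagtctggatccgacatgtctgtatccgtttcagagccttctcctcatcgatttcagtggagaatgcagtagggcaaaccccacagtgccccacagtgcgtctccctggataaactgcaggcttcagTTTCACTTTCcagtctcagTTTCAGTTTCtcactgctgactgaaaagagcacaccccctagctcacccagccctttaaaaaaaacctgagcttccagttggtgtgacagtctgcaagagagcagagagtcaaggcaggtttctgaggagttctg
Psmb9, which fell, is shown from chr17:34187281-34187580 on the minus strand; it shares this stretch with the start of Tap1, which runs the other way, and held none of the 3 motifs.
Psmb9: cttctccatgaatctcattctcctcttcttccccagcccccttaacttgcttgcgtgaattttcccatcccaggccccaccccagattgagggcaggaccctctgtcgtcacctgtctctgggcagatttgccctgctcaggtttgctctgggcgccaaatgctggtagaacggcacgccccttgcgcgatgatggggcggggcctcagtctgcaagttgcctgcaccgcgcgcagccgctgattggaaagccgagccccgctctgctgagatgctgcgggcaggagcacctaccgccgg
The response element was thus present in genes that rose and in genes that did not pass the test.

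Stroke was followed by a rise of 3 of the 39 genes in both genotypes: the membrane proteins Ifitm3 and Ifitm2, which block virus entry, and Cxcl10, a chemokine that attracts T cells. Psmb9, the inducible beta1i subunit of the immunoproteasome, fell in both genotypes, and Gbp2, a guanylate-binding GTPase of cell-autonomous defence, fell in Cko mice. None of the 13 tested antiviral effectors and none of the 3 MHC class I chains passed the threshold in either genotype. Tests were moderated limma tests on log2(RPKM + 1), with genes of mean RPKM of at least 1 and Benjamini-Hochberg adjustment over all genes, and changes of low genes are understated on this scale. Of the 39 genes, 36 were tested here; Mx1 (0 to 0.426 RPKM over the 16 libraries), Mx2 (0.0835 to 2.02 RPKM) and Cxcl9 (0 to 0.0477 RPKM) fell under the filter. Cxcl10 passed it only through the stroke hemispheres, with a mean under 1 RPKM in Cko-NS and WT-NS, so its place in the counts was favoured by the filter; leaving it aside, 2 genes rose in each genotype. With no filter its fold changes also passed (limma, adjusted p = 0.00235 in Cko mice and 0.00397 in WT mice).

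In WT mice 4 of the 36 genes (11.1%) passed an adjusted p of 0.05, against 13.3% of the 9838 genes tested, so the share called was near that of all genes. The 3 that rose stood against 8.46% of all genes and the 1 that fell against 4.84%. In Cko mice 5 of 36 (13.9%) passed, against 15.2% of all genes, with 3 higher (6.44% of all genes) and 2 lower (8.71% of all genes). The median log2 fold change of the 36 was 0.06 in WT mice, where all genes had 0.01, and -0.22 in Cko mice, where all genes had -0.13. Small effects were common: 29 of 36 (80.6%) lay within 0.5 of 0 in WT mice, against 59.9% of all genes, and 26 of 36 (72.2%) in Cko mice, against 56.6%. Groups did not overlap for 3 genes higher and 2 lower in Cko mice (7.4% and 11.4% of all genes) and for 3 higher and 2 lower in WT mice (11.9% and 8.7% of all genes). The effects were positive in both genotypes for 12 genes, negative in both for 13 and of opposite sign for 11. Over the stroke libraries, Cko-ST 4 held the highest value of 6 and the lowest of 10 of the 36 genes.

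**Figure D1:**
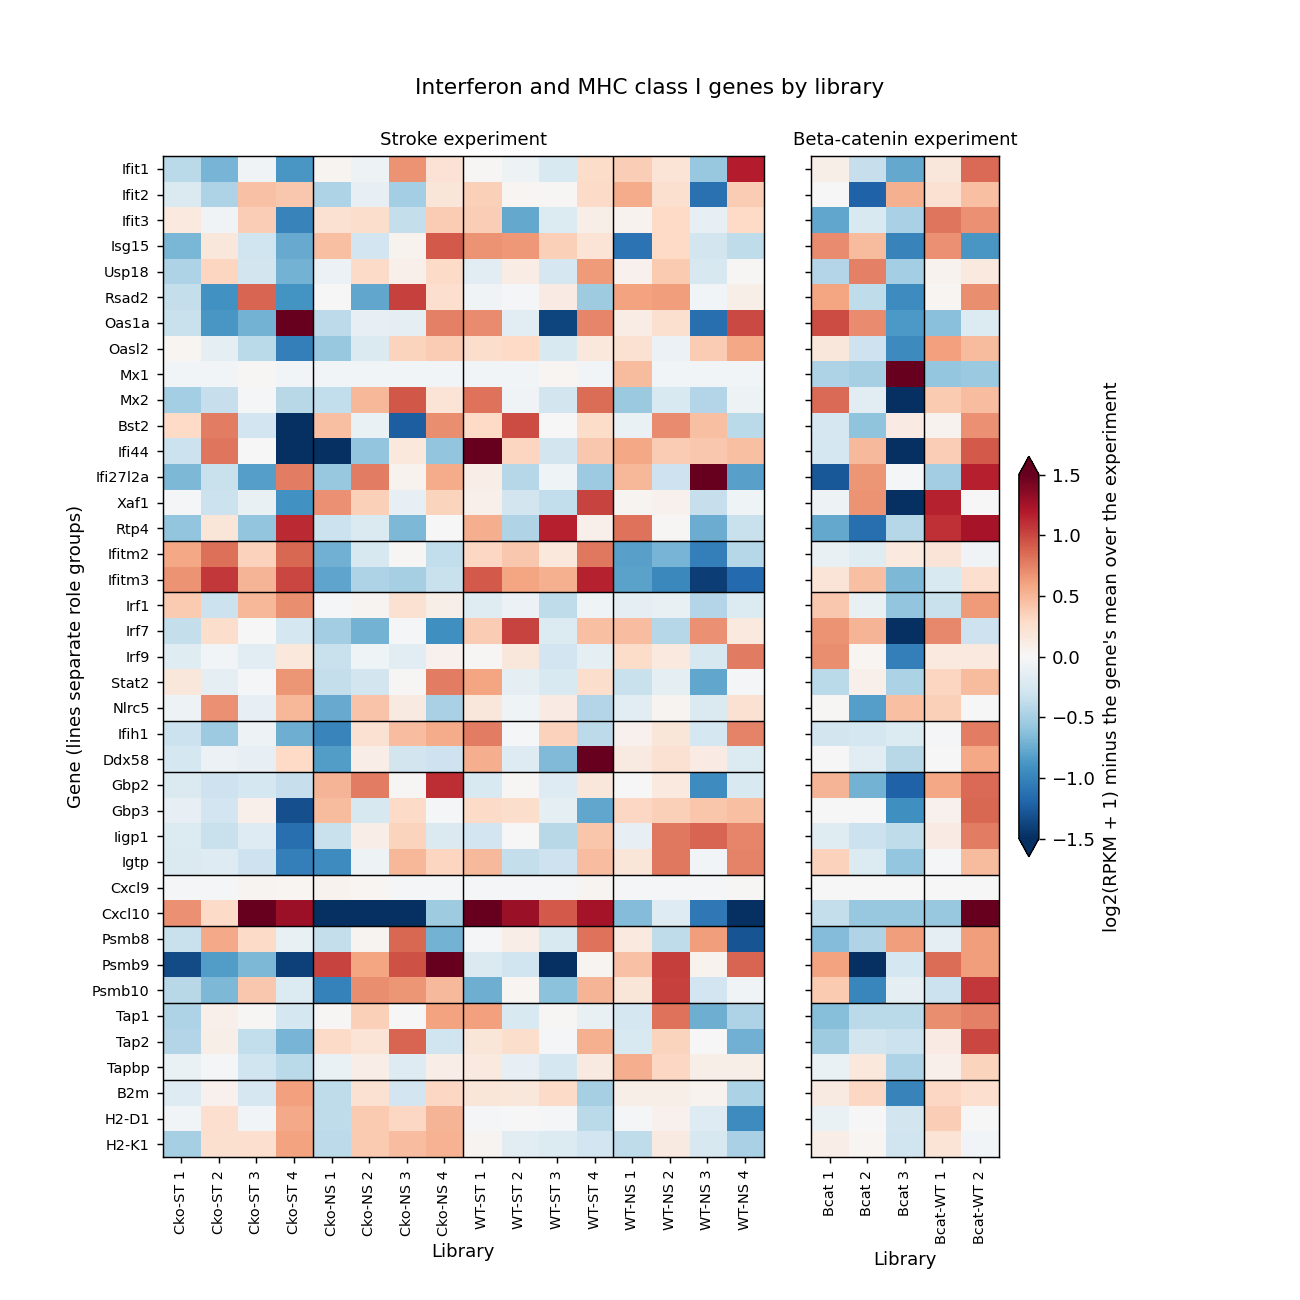
Heat map of all 39 genes (rows, by role) in the 16 stroke libraries (left columns) and the Bcat and Bcat-WT libraries (right columns). Colour gives log2(RPKM + 1) minus the gene's mean over the libraries of that experiment. In the stroke libraries Ifitm3, Ifitm2 and Cxcl10 are above their mean in the stroke hemispheres and Psmb9 is below it, while most other rows show no split by hemisphere.

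Ifitm3 (chr7:141009586-141010770, minus strand, GRCm38) measured 677, 881, 601 and 849 RPKM in Cko-ST against 243, 307, 298 and 337 RPKM in Cko-NS. In WT-ST it measured 803, 637, 611 and 944 RPKM, against 242, 216, 159 and 188 RPKM in WT-NS. All 8 stroke-hemisphere libraries were above all 8 non-stroke libraries. The log2 fold change was 1.33 ± 0.18 (SE, limma, adjusted p = 8.09e-05) in Cko mice and 1.89 ± 0.18 (adjusted p = 2.12e-06) in WT mice.

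Ifitm2, its neighbour at chr7:140954837-140955987, had 263, 313, 224 and 319 RPKM in Cko-ST against 106, 149, 178 and 136 RPKM in Cko-NS. In WT-ST its values were 218, 233, 197 and 305 RPKM, against 99.7, 108, 85.7 and 131 RPKM in WT-NS. Again no stroke-hemisphere library overlapped the non-stroke libraries. It rose by 0.98 ± 0.19 on the log2 scale in Cko mice (SE, limma, adjusted p = 0.00175) and by 1.16 ± 0.19 in WT mice (adjusted p = 0.000504). Of the 36-base words of Ifitm2 transcripts 5.48% also occur in Ifitm3, so reads of these stretches could be counted for either gene.

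Cxcl10 (chr5:92346638-92348889, minus strand) measured 4.45, 3.14, 10.1 and 7.20 RPKM in Cko-ST against 0, 0.0894, 0.157 and 1.33 RPKM in Cko-NS. WT-ST had 9.79, 7.31, 5.40 and 7.01 RPKM, against 1.15, 1.96, 0.609 and 0.0287 RPKM in WT-NS. The stroke libraries lay above the non-stroke libraries throughout, though all at low RPKM. The rise was 2.36 ± 0.39 in Cko mice (log2, SE, limma, adjusted p = 0.000445) and 2.19 ± 0.39 in WT mice (adjusted p = 0.000936), and with a pseudocount of 0.1 in place of 1 it was 4.32 and 3.39. The whole gene lies within Art3 on the other strand, and whether counting used strand is not given in the sources used here. Cxcl9, another ligand of the same receptor, stayed at or near 0.

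**Figure D2:**
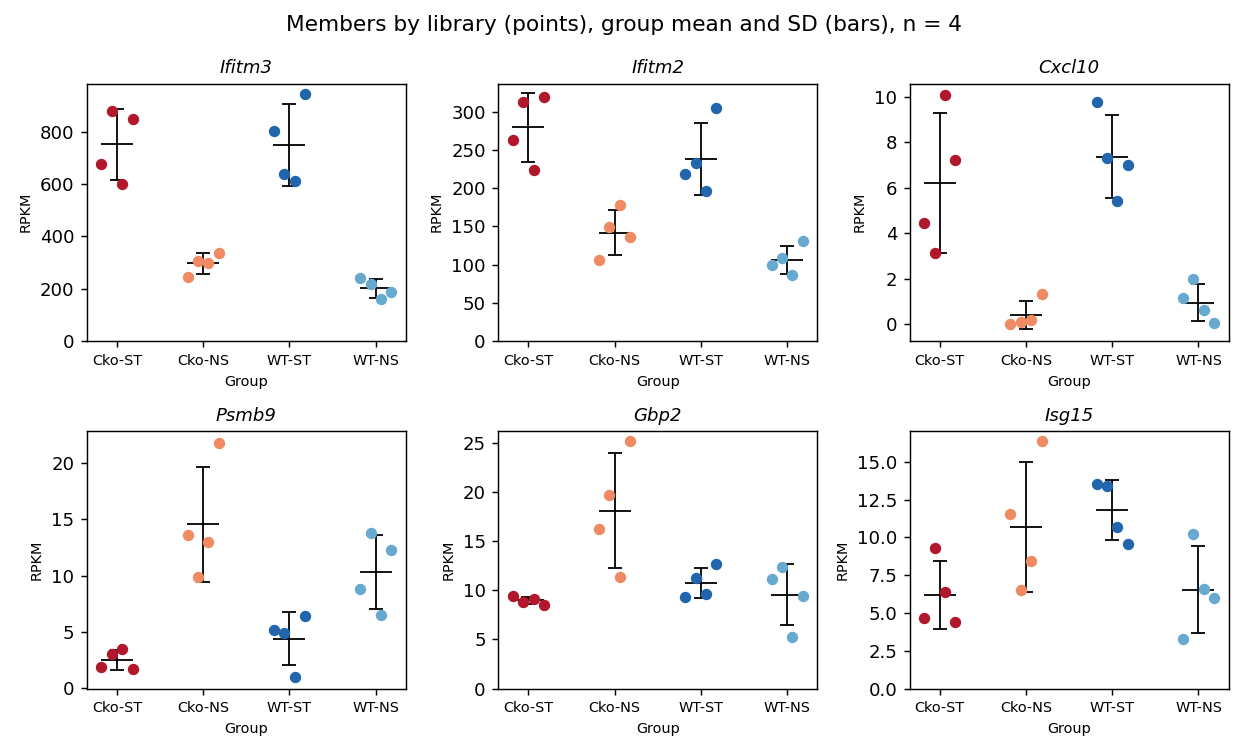
RPKM of 6 genes in the 16 stroke libraries (points), by group on the horizontal axis, with group mean and SD as bars (n = 4 each). Ifitm3, Ifitm2 and Cxcl10 sit higher and Psmb9 lower in Cko-ST and WT-ST than in Cko-NS and WT-NS, Gbp2 has its highest values in Cko-NS, where 1 of 4 libraries lies within the WT range, and Isg15 overlaps in both hemisphere comparisons.

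Psmb9 (chr17:34181987-34187764, minus strand) fell to 1.85, 3.03, 3.52 and 1.73 RPKM in Cko-ST, against 13.6, 9.86, 13.0 and 21.8 RPKM in Cko-NS. WT-ST had 5.21, 4.86, 0.995 and 6.42 RPKM, against 8.80, 13.8, 6.48 and 12.3 RPKM in WT-NS. The hemispheres did not overlap in either genotype, but in WT mice the lowest non-stroke value and the highest stroke value nearly met. The log2 fold change was -2.12 ± 0.38 (SE, limma, adjusted p = 0.000924) in Cko mice and -1.18 ± 0.38 (adjusted p = 0.0454) in WT mice. The WT call was lost in limma fits without WT-ST 1 (adjusted p = 0.0533), WT-ST 2 (0.0579), WT-ST 3 (0.148, where the fold change was -0.76), WT-NS 1 (0.0701), WT-NS 2 (0.121) or WT-NS 4 (0.111), whereas the Cko call held in all 15 alternatives. Psmb9 and Tap1 overlap by 212 bases at their starts.

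The other immunoproteasome subunits overlapped between hemispheres. Psmb8, the beta5i subunit, measured 5.97 to 12.1 RPKM in Cko-ST and 4.37 to 14.9 RPKM in Cko-NS, and 6.48 to 14.4 RPKM in WT-ST and 2.57 to 12.5 RPKM in WT-NS. Psmb10, the beta2i subunit, had log2 fold changes of -0.43 ± 0.41 in Cko mice and -0.42 ± 0.41 in WT mice (SE). By contrast the standard subunit that Psmb9 replaces, Psmb6, rose by 0.63 ± 0.20 in Cko mice (limma, adjusted p = 0.0428, held in 8 of 15 alternatives) and by 0.87 ± 0.20 in WT mice (adjusted p = 0.00680). Psmb7, the counterpart of Psmb10, rose by 0.98 ± 0.21 in Cko mice (limma, adjusted p = 0.00448) and by 1.14 ± 0.21 in WT mice (adjusted p = 0.00157). Psmb5, the counterpart of Psmb8, had 0.45 ± 0.29 in Cko mice and 0.76 ± 0.29 in WT mice and did not pass.

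Gbp2 (chr3:142620602-142638008, plus strand) measured 9.45, 8.82, 9.12 and 8.55 RPKM in Cko-ST against 16.3, 19.7, 11.3 and 25.2 RPKM in Cko-NS, with no overlap. WT-ST had 9.36, 11.3, 9.61 and 12.6 RPKM and WT-NS 11.2, 12.4, 5.29 and 9.41 RPKM, which overlapped. The Cko-NS libraries thus held the highest values of the 4 groups, apart from 1 that lay within the WT range. It fell by 0.88 on the log2 scale in Cko mice (SE 0.26, limma, adjusted p = 0.0296), and the value in WT mice was 0.19 ± 0.26. The Cko call was lost in limma fits without Cko-ST 1 (adjusted p = 0.0574), Cko-ST 2 (0.0651), Cko-ST 4 (0.0588), Cko-NS 2 (0.0737) or Cko-NS 4 (0.0874), and without both sex-discordant libraries (0.120, fold change -0.72). The same 2 libraries left out, the Cko values of Ifitm3 (1.5), Ifitm2 (1.07), Cxcl10 (2.40) and Psmb9 (-2.05) all stayed past the threshold.

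The 3 other GTPases did not pass. Iigp1, an immunity-related GTPase of the vacuole defence, had log2 fold changes of -0.44 ± 0.29 in Cko mice and -0.64 ± 0.29 in WT mice (SE), Igtp had -0.39 ± 0.33 and -0.35 ± 0.33, and Gbp3 had -0.54 ± 0.32 and -0.47 ± 0.32. Gbp3 in WT-ST (4.49, 4.42, 3.07 and 1.63 RPKM) nevertheless did not overlap WT-NS (4.57, 4.79, 5.0 and 5.14 RPKM), 1 of 2 genes of the list that were lower in every WT-ST library, as were 8.7% of all genes.

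Among the 13 tested antiviral effectors, log2 fold changes ran between -0.72 and 0.40 in Cko mice (median -0.42) and between -0.53 and 0.84 in WT mice (median 0.02). Ifit1, which binds viral RNA caps, measured 30.1, 24.3, 38.8 and 21.5 RPKM in Cko-ST against 41.3, 38.2, 64.5 and 46.7 RPKM in Cko-NS. In WT-ST it measured 40.8, 38.0, 34.2 and 49.0 RPKM, against 52.1, 46.5, 26.8 and 91.8 RPKM in WT-NS. Both pairs of groups overlapped, in Cko mice by a small margin. Isg15, a ubiquitin-like modifier, had 4.67, 9.28, 6.41 and 4.44 RPKM in Cko-ST against 11.5, 6.49, 8.46 and 16.4 RPKM in Cko-NS, and 13.5, 13.4, 10.7 and 9.56 RPKM in WT-ST against 3.26, 10.3, 6.57 and 6.02 RPKM in WT-NS. Its log2 fold changes, -0.68 ± 0.32 in Cko mice (SE, limma, adjusted p = 0.169) and 0.84 ± 0.32 in WT mice (adjusted p = 0.0952), were of opposite sign and neither passed.

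The transcription factors and RNA sensors did not pass either. Stat2, which pairs with Irf9, measured 7.85 to 14.5 RPKM in Cko-ST and 6.62 to 15.7 RPKM in Cko-NS, and 7.35 to 13.8 RPKM in WT-ST and 4.70 to 8.65 RPKM in WT-NS. The other factors, Irf1, Irf7, Irf9 and Nlrc5 (the activator of MHC class I genes), had fold changes between 0.07 and 0.46 in Cko mice and between -0.30 and 0.19 in WT mice. Ifih1 (MDA5), a sensor of long double-stranded RNA, had -0.48 ± 0.35 and -0.01 ± 0.35, and Ddx58 (RIG-I) 0.29 ± 0.37 and 0.23 ± 0.37, in Cko and WT mice (log2, SE).

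None of the MHC class I chains and peptide-loading genes passed the threshold. B2m, the light chain, averaged 3157 ± 943 RPKM in Cko-ST and 2939 ± 711 RPKM in Cko-NS, and 3075 ± 675 RPKM in WT-ST and 2847 ± 489 RPKM in WT-NS (SD, n = 4 each). H2-K1, a heavy chain, averaged 484 ± 141 RPKM in Cko-ST and 514 ± 131 RPKM in Cko-NS, and 378 ± 38.7 RPKM in WT-ST and 360 ± 71.0 RPKM in WT-NS. H2-D1 averaged 152 ± 32.3 RPKM in Cko-ST and 156 ± 38.6 RPKM in Cko-NS, and 122 ± 15.5 RPKM in WT-ST and 112 ± 31.1 RPKM in WT-NS. Hemispheres overlapped in all 3, with log2 fold changes between -0.10 and 0.16; without both sex-discordant libraries B2m had 0.31 ± 0.24 in Cko mice (SE, limma, adjusted p = 0.434). Tapbp, which bridges class I molecules to the transporter, had -0.19 ± 0.16 in Cko mice and -0.29 ± 0.16 in WT mice (log2, SE), and the transporter genes Tap1 and Tap2 had -0.40 ± 0.33 and -0.62 ± 0.30 in Cko mice and 0.23 ± 0.33 and 0.39 ± 0.30 in WT mice. Of the 36-base words of H2-D1 11.0% occur in H2-K1, so part of their reads could be exchanged.

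**Figure D3:**
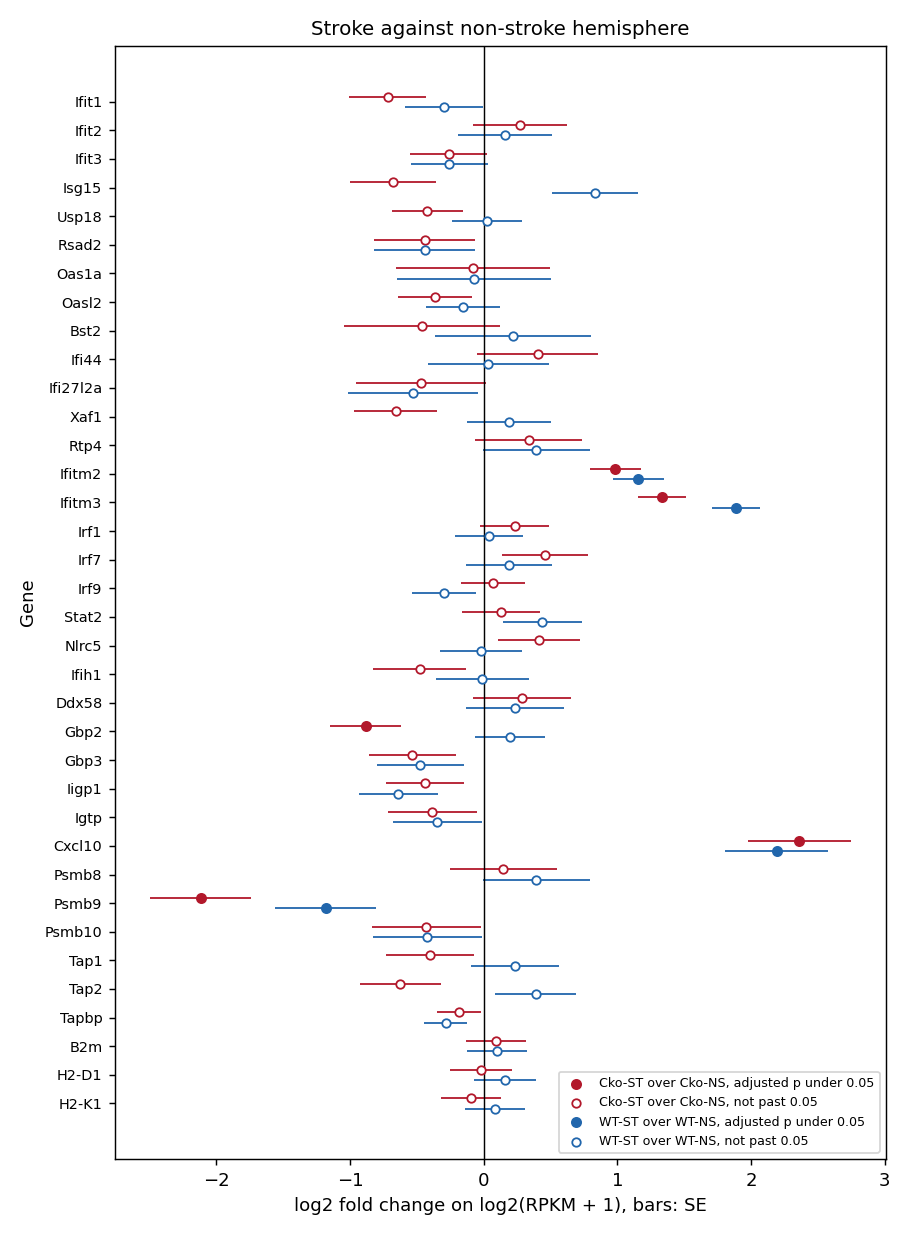
Log2 fold change on log2(RPKM + 1) of each tested gene in the stroke hemisphere over the non-stroke hemisphere, for Cko and WT mice, with SE bars; filled points pass an adjusted p of 0.05. The filled points are Ifitm3, Ifitm2 and Cxcl10 to the right and Psmb9 to the left in both genotypes, and Gbp2 to the left in Cko mice.

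Other genes of the pathway were read from lists chosen with earlier results known. Of 26 receptor and signalling genes 18 were tested, and in Cko mice 3 rose and 3 fell, while in WT mice 3 rose and 1 fell. For this and the following lists, 6.44% of all genes rose and 8.71% fell in Cko mice, and 8.46% rose and 4.84% fell in WT mice. Tmem173 (STING), the adaptor of DNA sensing, measured 10.0, 15.5, 7.48 and 21.4 RPKM in Cko-ST against 2.10, 1.88, 2.10 and 2.86 RPKM in Cko-NS, and 10.7, 8.38, 9.20 and 8.65 RPKM in WT-ST against 2.02, 0.751, 1.69 and 0.924 RPKM in WT-NS. No library overlapped, and it rose by 2.09 ± 0.30 in Cko mice (log2, SE, limma, adjusted p = 0.000142) and by 2.16 ± 0.30 in WT mice (adjusted p = 9.90e-05). Ifnar1, a type I interferon receptor chain, measured 7.12, 9.80, 8.57 and 5.03 RPKM in Cko-ST against 18.9, 20.9, 24.5 and 29.5 RPKM in Cko-NS, and 19.1, 14.0, 4.04 and 14.7 RPKM in WT-ST against 22.9, 30.5, 26.3 and 29.6 RPKM in WT-NS. Within each genotype every stroke-hemisphere library lay below the non-stroke libraries, with log2 fold changes of -1.52 ± 0.33 in Cko mice (SE, limma, adjusted p = 0.00472) and -1.18 ± 0.33 in WT mice (adjusted p = 0.0247), where the call was lost with no filter and without WT-ST 3, WT-NS 2 or WT-NS 4 (highest adjusted p over the alternatives 0.0609).

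Jak2, one of the Jak kinases, rose by 1.02 ± 0.21 in Cko mice (log2, SE, limma, adjusted p = 0.00291) and by 0.82 ± 0.21 in WT mice (adjusted p = 0.0139; 0.0513 without WT-ST 4). Socs3, a feedback inhibitor of Jak signalling, rose by 2.24 ± 0.32 in WT mice (limma, adjusted p = 0.000123) and had 0.82 ± 0.32 in Cko mice (adjusted p = 0.0895). Its Cko-NS values were 12.5, 12.8, 12.2 and 30.3 RPKM, the last in a sex-discordant library. They lay above WT-NS (2.95 to 7.44 RPKM), while Cko-ST (20.7 to 35.3 RPKM) and WT-ST (22.5 to 44.2 RPKM) overlapped. Between Cko-NS and WT-NS 0 of the 18 tested genes of this list were called, and 6.66% of all genes were higher without overlap. Named after their values were seen, the remaining calls in Cko mice were Ifngr2 (0.90 ± 0.23), Ifnar2 (-1.17 ± 0.30) and Il10rb (-1.32 ± 0.42); in limma Ifngr2 did not pass without Cko-ST 2 (adjusted p = 0.0516), Ifnar2 did not pass without both sex-discordant libraries (0.0639) and Il10rb passed in 7 of 15 alternatives. Transcripts of the interferons Ifnb1 and Ifng were listed at 0 in all 21 libraries.

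Of 52 other interferon-induced genes 40 were tested, and 3 rose and 4 fell in Cko mice, while 4 rose and 3 fell in WT mice, so that the 7 calls of each genotype stood against 15.2% of all genes called in Cko mice and 13.3% in WT mice. Slfn4, a Schlafen family gene, had 13.3, 11.5, 9.82 and 19.2 RPKM in Cko-ST against 1.54, 0.869, 1.40 and 4.58 RPKM in Cko-NS, and 25.3, 17.2, 33.2 and 10.5 RPKM in WT-ST against 0.426, 0.146, 1.83 and 1.48 RPKM in WT-NS. It rose by 2.31 ± 0.40 in Cko mice (log2, SE, limma, adjusted p = 0.000764) and by 3.50 ± 0.40 in WT mice (adjusted p = 1.68e-05), with no overlap. Slfn4 is known from myeloid cells, whose summed markers are given above by group; their part in the result was not tested. Ifitm1, another gene of the IFITM family, measured 23.9, 30.8, 16.6 and 27.5 RPKM in Cko-ST against 8.29, 12.7, 6.96 and 17.1 RPKM in Cko-NS, and 25.1, 19.9, 20.2 and 27.5 RPKM in WT-ST against 9.47, 5.65, 6.06 and 7.14 RPKM in WT-NS. Hemispheres overlapped in Cko mice at 1 library and not in WT mice, and the gene rose by 1.11 ± 0.27 in Cko mice (limma, adjusted p = 0.00936) and by 1.59 ± 0.27 in WT mice (adjusted p = 0.000681).

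The guanylate-binding protein Gbp7 fell by 0.97 in Cko mice (SE 0.20, limma, adjusted p = 0.00260) and by 0.94 in WT mice (SE 0.20, adjusted p = 0.00326). Sp100, a nuclear body protein, fell by 1.09 in Cko mice (SE 0.27, limma, adjusted p = 0.00956) and by 1.16 in WT mice (SE 0.27, adjusted p = 0.00673). Ly6a (Sca-1) rose by 0.95 ± 0.16 in WT mice (limma, adjusted p = 0.000505) and had 0.27 ± 0.16 in Cko mice. Its Cko-NS values (2924 to 4483 RPKM) lay above WT-NS (2214 to 2565 RPKM), while Cko-ST (3310 to 4947 RPKM) and WT-ST (4012 to 5220 RPKM) overlapped. Here too 0 of the 40 tested genes of the list were called between Cko-NS and WT-NS, with 6.66% of all genes higher without overlap. The chemokine Cxcl16 rose by 1.36 ± 0.34 in Cko mice and by 1.66 ± 0.34 in WT mice (limma, adjusted p = 0.0105 and 0.00275). All of its Cko-NS values were under 1 RPKM (0.170 to 0.965), so the filter favoured it there. Named after their values were seen, the remaining calls were less stable: Samd9l (-1.03) and Uba7 (-1.19) fell in Cko mice and passed in 6 of 15 and 2 of 14 alternatives, and Cmpk2 (-1.17) fell in WT mice and passed in 4 of 14.

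Of 19 other MHC class I and loading genes 18 were tested. H2-T23 (Qa-1), a non-classical class I chain, measured 2.39, 5.24, 8.30 and 7.83 RPKM in Cko-ST against 13.2, 23.3, 23.2 and 19.6 RPKM in Cko-NS, and 9.69, 8.05, 3.66 and 7.06 RPKM in WT-ST against 16.7, 12.9, 22.7 and 10.5 RPKM in WT-NS. No stroke library reached a non-stroke library, and it fell by 1.66 in Cko mice (SE 0.34, limma, adjusted p = 0.00309), while in WT mice its value of -1.05 ± 0.34 missed the threshold (adjusted p = 0.0508). The chaperone Canx rose by 0.66 ± 0.15 in Cko mice (limma, adjusted p = 0.00505) and by 0.86 ± 0.15 in WT mice (adjusted p = 0.000650). Calr, another chaperone of class I folding, rose by 1.06 ± 0.26 in WT mice (limma, adjusted p = 0.0111) and had 0.73 ± 0.26 in Cko mice (adjusted p = 0.0710). Erap1, a peptide-trimming enzyme, passed in WT mice (1.17 ± 0.36, limma, adjusted p = 0.0409, in 5 of 14 alternatives) and had -0.91 ± 0.36 in Cko mice (adjusted p = 0.103). None of 7 MHC class II genes reached a mean of 1 RPKM.

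**Figure D4:**
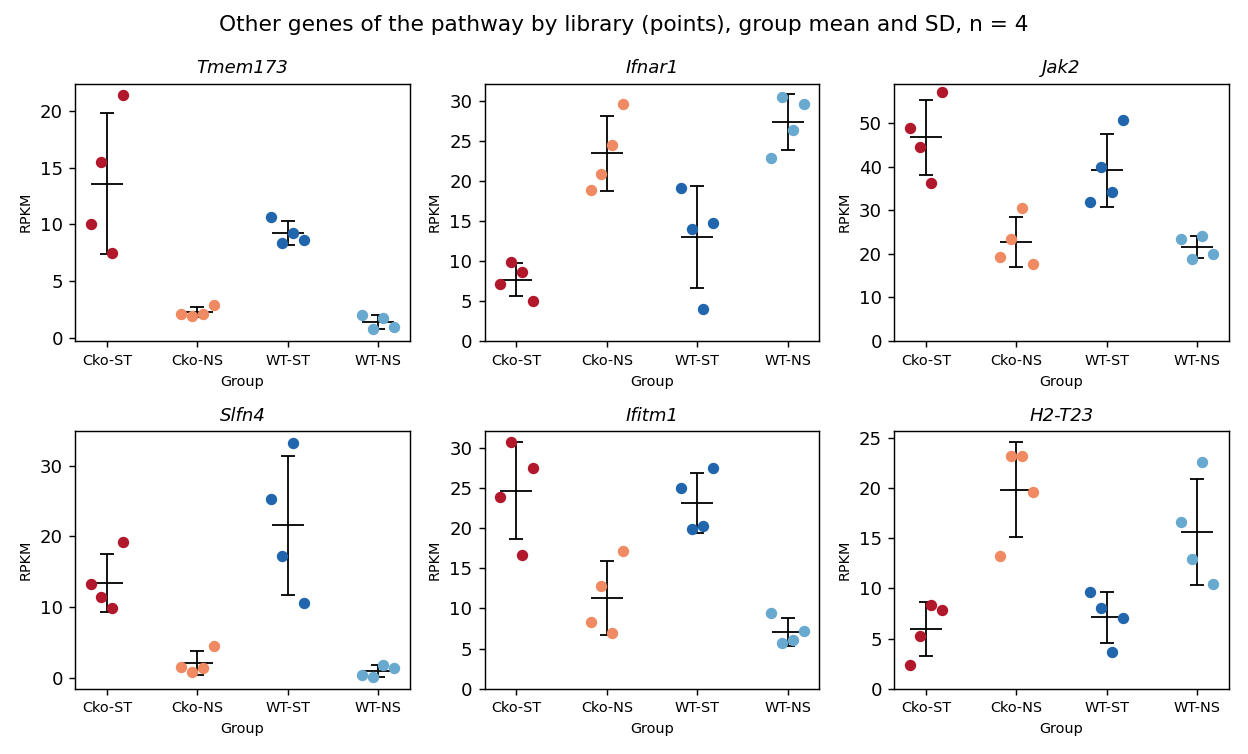
RPKM of 6 other genes of the pathway in the 16 stroke libraries (points), by group, with group mean and SD as bars (n = 4 each). Tmem173, Jak2, Slfn4 and Ifitm1 sit higher and Ifnar1 and H2-T23 lower in Cko-ST and WT-ST than in Cko-NS and WT-NS.

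Loss of Gpr124 changed none of the 36 genes past the threshold in either hemisphere. In the non-stroke hemisphere 0 of 36 passed, against 0.315% of all genes (31 of 9838; 0.224% higher and 0.0915% lower), and 6 of 36 (16.7%) had an unadjusted p under 0.05 in limma, against 14.3% of all genes. The 3 lowest p belonged to Gbp2, Ifitm3 and Ifi44, whose values by library stand above for the first 2. Gbp2 averaged 18.1 ± 5.84 RPKM in Cko-NS and 9.58 ± 3.11 RPKM in WT-NS (SD, n = 4 each), with 1 Cko-NS library inside the WT-NS range, and a log2 fold change of 0.86 ± 0.26 (SE, limma, adjusted p = 0.146; 0.69 and 0.290 without both sex-discordant libraries). Ifitm3 averaged 296 ± 39.1 RPKM in Cko-NS and 201 ± 35.7 RPKM in WT-NS, with values just apart, and a log2 fold change of 0.56 ± 0.18 (limma, adjusted p = 0.158; 0.50 and 0.228 without both).

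Ifi44, an interferon-induced protein of unsettled function, measured 2.14, 5.60, 10.2 and 5.59 RPKM in Cko-NS against 13.9, 12.0, 12.2 and 12.6 RPKM in WT-NS. All Cko-NS values lay below the WT-NS values, and the log2 fold change was -1.13 ± 0.45 (SE, limma, adjusted p = 0.268; -1.15 and 0.344 without both). Irf1, the activator of many class I genes, was 3.03, 3.2, 3.75 and 3.31 RPKM in Cko-NS against 2.69, 2.77, 2.0 and 2.54 RPKM in WT-NS, apart but by a small amount (0.31 ± 0.25, and 0.31 without both). Genes with no overlap were thus 2 higher (Irf1 and Ifitm3, against 6.66% of all genes) and 1 lower (Ifi44, against 2.04%). The heavy chains H2-K1 and H2-D1 had 0.49 ± 0.23 and 0.48 ± 0.23 and overlapped.

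In the stroke hemisphere 0 of 36 passed, against 0% of all genes, and 1 of 36 (2.78%) had an unadjusted p under 0.05 in limma, against 4.84% of all genes. Isg15 was that gene: its 4 Cko-ST values, 4.44 to 9.28 RPKM, lay below its WT-ST values, 9.56 to 13.5 RPKM, with a log2 fold change of -0.86 ± 0.32 (SE, limma, adjusted p = 0.994; -0.89 and 0.730 without both sex-discordant libraries). It was the only one of the 36 with no overlap between Cko-ST and WT-ST, where 1.86% of all genes were lower and 1.46% higher without overlap. Tap2 had -0.59 ± 0.30 (-0.59 without both) and Irf1 0.50 ± 0.25 (0.44 without both). Of the 36 genes 28 had a negative fold change (54.0% of all genes did), with a median of -0.23 where all genes had -0.03. All 13 antiviral effectors were negative, with a median of -0.36, but Ifit3 (-0.01), Ifi27l2a (-0.03) and Oas1a (-0.04) were close to 0. Without both sex-discordant libraries Oas1a (0.18) and Ifi27l2a (0.15) were positive. These genes are not independent of each other, and no single value passed.

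The difference between the stroke effects of the genotypes was tested as an interaction, and 0 of 36 genes passed, against 0% of all genes; 4 of 36 (11.1%) had an unadjusted p under 0.05 in limma, against 7.02% of all genes. Isg15 had the lowest p, with a stroke effect lower in Cko than in WT mice by -1.51 ± 0.45 (log2, SE, limma, adjusted p = 0.681). The values of Gbp2 (-1.08 ± 0.37) and Tap2 (-1.01 ± 0.43) had the same adjusted p, and Ifitm3 had -0.55 ± 0.25 (adjusted p = 0.702). The smaller Ifitm3 effect in Cko mice went with the higher Cko-NS values given above, since Cko-ST and WT-ST averaged 752 ± 135 and 749 ± 156 RPKM (SD, n = 4 each). Without both sex-discordant libraries Isg15 had -1.33, Gbp2 -0.92, Tap2 -1.19 and Ifitm3 -0.39 (limma, adjusted p = 0.550, 0.614, 0.564 and 0.730).

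Endothelial cells with stabilised beta-catenin showed lower RPKM for most of these genes, but no gene passed the threshold. Of 38 tested genes (Cxcl9 was at 0 in all 5 libraries) 0 were called, against 0% of 11252 genes, and 6 (15.8%) had an unadjusted p under 0.05 in limma, against 5.24% of all genes. The log2 fold change was negative for 35 of 38 (92.1%), against 54.2% of all genes, and its median was -0.59 (quartiles -0.90 and -0.29), where all genes had -0.06. In 14 of 38 genes (36.8%) all 3 Bcat libraries lay below both Bcat-WT libraries, against 11.7% of all genes, and 1 gene, Mx1, lay above, against 8.66%. The 14 were Ifit1, Ifit3, Oasl2, Rtp4, Stat2, Ifih1, Ddx58, Gbp2, Gbp3, Iigp1, Psmb9, Tap1, Tap2 and H2-D1. Some were apart by very little between the highest Bcat and the lowest Bcat-WT library. These values were 26.0 and 26.1 RPKM for Ddx58, 179 and 180 RPKM for H2-D1, and 43.0 and 43.7 RPKM for Psmb9. Rtp4, Ifit3 and Tap1, given below, were further apart. Genes of a shared pathway vary together between libraries: Bcat 3 held the lowest value of 23 of the 38 genes and Bcat-WT 2 the highest of 19. Leaving out 1 library at a time, the median stayed between -0.76 (without Bcat-WT 1) and -0.42 (without Bcat-WT 2), and 18 to 23 of 38 genes had no overlap, against 19.1 to 25.8% of all genes.

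Rtp4, a chaperone-like protein induced by interferon, measured 10.9, 8.28 and 14.1 RPKM in Bcat against 42.3 and 46.9 RPKM in Bcat-WT. The groups were far apart, and the log2 fold change was -1.94 ± 0.34 (SE, limma, adjusted p = 0.494). Ifit3 measured 13.3, 19.8 and 16.5 RPKM in Bcat against 41.7 and 38.4 RPKM in Bcat-WT, again with no overlap (-1.25 ± 0.31, limma, adjusted p = 0.714). Of its 36-base words 58.5% also occur in Ifit3b, so the values of these copies are uncertain. Oasl2, an oligoadenylate synthetase-like protein, had 60.5, 42.9 and 27.0 RPKM in Bcat against 82.6 and 75 RPKM in Bcat-WT (-0.91 ± 0.34, limma, adjusted p = 0.911). Ifit1 had 35.5, 26.0 and 19.1 RPKM in Bcat against 37.5 and 60.8 RPKM in Bcat-WT (-0.85 ± 0.35), where the nearest libraries almost met.

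In the presentation pathway, Tap1 measured 3.47, 4.28 and 4.30 RPKM in Bcat against 10.3 and 10.8 RPKM in Bcat-WT, a log2 fold change of -1.21 ± 0.46 (SE, limma, adjusted p = 0.911). Psmb9, which starts beside it, had 43.0, 7.25 and 23.1 RPKM in Bcat against 50.6 and 43.7 RPKM in Bcat-WT, a wide spread within Bcat. Gbp2 had 34.6, 14.3 and 9.79 RPKM in Bcat against 36.4 and 44.2 RPKM in Bcat-WT (-1.19 ± 0.48). The class I chains had smaller values: H2-D1 averaged 165 ± 16.0 RPKM in Bcat (n = 3) and 206 ± 36.3 RPKM in Bcat-WT (n = 2), and H2-K1 averaged 235 ± 33.2 RPKM in Bcat and 258 ± 31.8 RPKM in Bcat-WT (SD). B2m was 1671, 1876 and 755 RPKM in Bcat against 1880 and 1806 RPKM in Bcat-WT, with Bcat 3 alone far lower.

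The genes that rose after stroke did not separate here. Ifitm3 measured 496, 592 and 272 RPKM in Bcat against 372 and 518 RPKM in Bcat-WT, and Ifitm2 138, 131 and 165 RPKM in Bcat against 170 and 144 RPKM in Bcat-WT, both overlapping. Cxcl10 was 0.156, 0 and 0 RPKM in Bcat against 0 and 5.18 RPKM in Bcat-WT, so its level rests on 1 library. Mx1, a dynamin-like antiviral GTPase, was 0.0811, 0.0547 and 5.36 RPKM in Bcat against 0 and 0.0144 RPKM in Bcat-WT, and passed the filter only through Bcat 3. The microglia and macrophage markers summed to 3.41 to 23.8 RPKM in Bcat against 1.75 to 2.63 RPKM in Bcat-WT. Most of the highest sum was Lyz2 in Bcat 1 (18.0 RPKM, against 0 and 0.0628 RPKM in Bcat 2 and Bcat 3). The mural markers summed to 34.4 to 89.0 RPKM in Bcat against 33.7 to 34.6 RPKM in Bcat-WT, and the endothelial markers to 3618 to 4639 RPKM in Bcat against 4112 to 4345 RPKM in Bcat-WT. The part of these cell types in the values above was not tested.

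**Figure D5:**
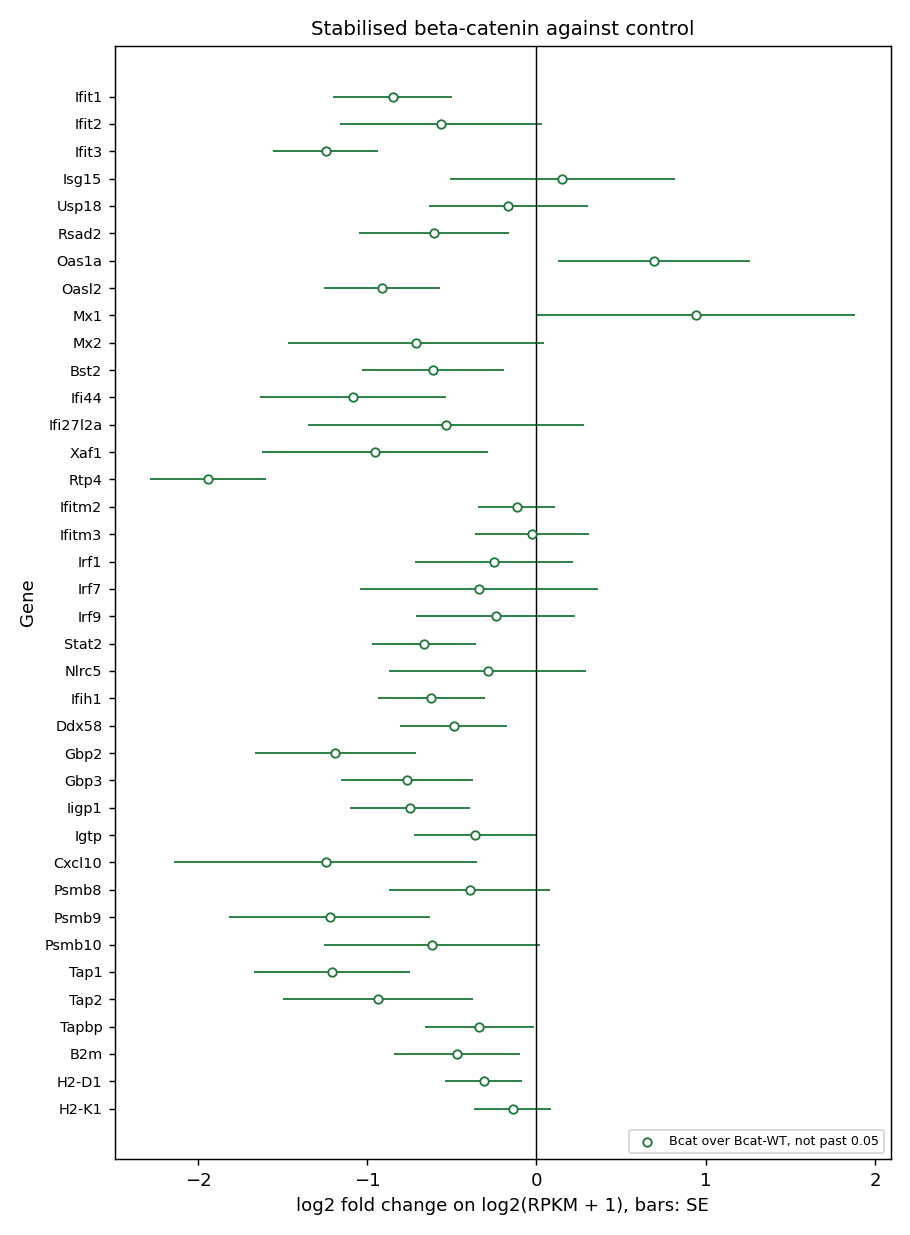
Log2 fold change on log2(RPKM + 1) of the 38 tested genes in Bcat (n = 3) over Bcat-WT (n = 2), with SE bars; open points did not pass an adjusted p of 0.05. Of the 38 points 35 lie left of 0, and Mx1, Oas1a and Isg15 lie right of it.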

How the data were processed

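RNA sequencing of sorted brain endothelial cells gave 21 libraries. The authors deposited 1 table of RPKM values, read counts divided by gene length and library size. Tools named in the submitters' processing notes are edgeR and the mm10 build; for the aligner, annotation, gene lengths and strand of counting the entry is: not given in the sources used here. Per the labels' protocols the stroke libraries used polyadenylated RNA and a 3' digital-expression kit, which reads transcript ends, so RPKM there depends on the gene's annotated end and length. Of 24260 rows, 54 with 1 of 23 repeated names were dropped and 24206 kept; 8 columns of no described sample were not used.

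The 39 genes, the lists and the tests were chosen with earlier results of these data known. Groups follow the labels, with replicates as the labels number them. Nothing in the labels ties each library to an animal of its own, so the p-values cover the spread among these libraries, which may be technical. Values were compared as log2(RPKM + 1) in limma 3.58.1 (R 4.3.3; eBayes with trend, two-sided, Benjamini-Hochberg over all genes, threshold 0.05) for genes with a mean of at least 1 RPKM, leaving out 5 sex-linked genes. A single fit of 4 group means covered the 16 stroke libraries (9838 genes), and another the other 5 (11252 genes). Scripts were tested on simulated data. No interval or detection floor is given, since depth in reads is unknown. Alternatives were a pseudocount of 0.1, no filter, a minimum mean of 5, median-of-ratios scaling, quantile normalization, the replicate number as a block, the 2 sex-discordant libraries left out, and each library left out in turn.

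Same-numbered libraries of Cko-ST and Cko-NS deviated together from their group means (r across genes 0.104 to 0.218 in all 4 pairs). The sex read from RNA is the same within each of these 4 pairs, while the labelled sex differs within numbers 3 and 4. Libraries of WT-ST and WT-NS with the same number did not deviate together in every pair (0.0117 to 0.130). The block alternative took the number within genotype as a pair in both Cko and WT mice for the stroke comparisons and the interaction. For the genotype and Bcat comparisons it joined equal numbers across genotypes, where r was -0.0169 to 0.0993. Each gene past the threshold is named, or the 3 with the lowest p where none passed, with the gene of highest mean RPKM in each role (a naming rule, not a comparison of levels); from other lists, up to 3 per comparison by lowest p. Some genes of these lists are not reported here by name and stay in the counts and sums. Gene coordinates are from GENCODE M21 (GRCm38, also called mm10) and promoters from RefSeq (GRCm38.p6). Tables and plots used Python 3.11.15, pandas 2.3.3 and matplotlib 3.10.9.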

Additional observations from a re-analysis of the deposited data

Results flagged for a closer look

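A library far from the other 3 of its group was found in 5 of 144 gene-by-group sets of the stroke experiment, where chance gives about 1 in 20. Oas1a, an oligoadenylate synthetase, was 10.0 RPKM in Cko-ST 4, against 0.869 to 1.72 RPKM in the other Cko-ST libraries, and 4.76 RPKM in Cko-NS 4, against 1.61 to 2.14 RPKM in the others; 65.7% of its 36-base words occur in Oas1g, so its counts are uncertain. Cxcl10 was 1.33 RPKM in Cko-NS 4, one of the sex-discordant libraries, against 0 to 0.157 RPKM in the other Cko-NS libraries. B2m was 2115 RPKM in WT-NS 4, against 3036 to 3123 RPKM in the others. H2-D1 was 98.8 RPKM in WT-ST 4, against 129 to 131 RPKM in the others.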

How the results depend on the processing

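Over the alternatives, 306 of 322 fold changes of the named genes of the list kept both direction and side of the limma threshold, 16 kept only the direction (all of them Psmb9 in WT or Gbp2 in Cko mice), and 0 reversed. The 322 include the genotype, interaction and Bcat comparisons, where no gene of the list was called and no call could be lost. Psmb9 in WT mice and Gbp2 in Cko mice each passed in 7 of 15 alternatives. With a minimum mean of 5 RPKM Cxcl10, Irf1 and Tap2 were not tested. The 1 fallen gene in WT mice, Psmb9, became 0 with a pseudocount of 0.1 (limma, adjusted p = 0.0534) or no filter (0.0938), and 0 to 1 with single libraries left out. The 2 fallen genes in Cko mice became 1, without Gbp2, under median-of-ratios scaling (limma, adjusted p = 0.0558), quantile normalization (0.0503) and without both sex-discordant libraries (0.120), and 1 to 2 with single libraries left out; the cause was not tested. In Cko mice the scaling moved the split of all calls, which was 634 higher and 857 lower, to 867 and 604 with median-of-ratios scaling (median of all genes -0.01 in place of -0.13) and to 744 and 663 with quantile normalization.

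For genotype in the non-stroke hemisphere, calls over all genes numbered 31, and 19 with no filter, 84 with a minimum of 5 RPKM, 60 with the replicate block and 1 to 41 with single libraries left out (lowest without WT-NS 4). That block joined same-numbered libraries of different genotypes, which are not from the same mouse. The split of the 31 calls, 22 higher and 9 lower, became 14 and 15 with median-of-ratios scaling and 18 and 14 with quantile normalization. The median of all genes was 0.11 before scaling. In the stroke hemisphere the genotype calls numbered 0, and 0 to 8 with single libraries left out (8 without WT-ST 3, 3 without Cko-ST 3). The block changed no call among the 39 genes. The Bcat count of 14 without overlap was 18 to 23 with single libraries left out, an alternative chosen after seeing the data in which fewer libraries have to separate. Depth in reads is unknown, and low RPKM such as those of Cxcl10 and Tap1 rest on few reads.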

Other observations

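Among the 52 other interferon-induced genes, none passed in Bcat mice. Gbp7 measured 25.7, 26.1 and 21.8 RPKM in Bcat against 51.3 and 60.1 RPKM in Bcat-WT (log2 fold change -1.15 ± 0.27, SE, limma, adjusted p = 0.672). Cmpk2, a mitochondrial nucleotide kinase, measured 9.98, 6.17 and 3.56 RPKM in Bcat against 22.1 and 20.1 RPKM in Bcat-WT (-1.64 ± 0.47). Ifitm1 ran the other way, at 4.67, 16.0 and 4.41 RPKM in Bcat against 0.0568 and 0.302 RPKM in Bcat-WT (2.78 ± 0.69, limma, adjusted p = 0.714), as did the exonuclease gene Isg20 at 26.0, 13.9 and 10.4 RPKM in Bcat against 4.33 and 5.91 RPKM in Bcat-WT. Ifitm1 passed the filter only through the Bcat libraries, so its place among the tested genes was favoured by the filter. These 4 genes were chosen after their values were seen.

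Erap1 measured 2.32, 3.12, 3.98 and 2.07 RPKM in Cko-ST against 12.2, 5.87, 2.50 and 7.13 RPKM in Cko-NS, and 7.82, 6.54, 7.01 and 5.73 RPKM in WT-ST against 2.80, 3.81, 0.935 and 2.99 RPKM in WT-NS. The difference between its stroke effects was -2.07 on the log2 scale (limma, adjusted p = 0.681).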
